A study of Mus musculus with 80 samples.

Results

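The 7 genes described here are those for glycerol kinase (Gk), the glycerol 3-phosphate dehydrogenases (Gpd1, Gpd1l and Gpd2), cytosolic phosphoenolpyruvate carboxykinase (Pck1) and the glycerol channels Aqp3 and Aqp7. They were taken by symbol from the 32765 rows of the deposited gene count tables, and each symbol matched 1 row. RNA sequencing had been run on 4 tissues, inguinal white adipose tissue (iWAT), brown adipose tissue (BAT), liver and muscle. The mice were wild type (WT), lacked UCP1 (UCP1 KO) or FGF21 (FGF21 KO), or lacked both (dKO). There were 5 libraries for each of the 16 groups. All mice were homozygous males bred, born and weaned at 30 °C, and all were moved at 10 to 12 weeks to room temperature and a high-fat diet for 3 weeks, with food removed 2 to 3 h before death. All groups, controls included, therefore shared the warm rearing, the move to room temperature and the diet. The labels spell the dKO genotype UCP1/FGF12, as does a passage of the study's methods, whereas the study elsewhere names it UCP1/FGF21.

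Adipocytes store fat as triglyceride, whose backbone is glycerol 3-phosphate. White adipocytes are known for making little glycerol kinase, so that glycerol set free by lipolysis mostly leaves through aquaporin 7, and the backbone is made instead from dihydroxyacetone phosphate by GPD1. The dihydroxyacetone phosphate comes from glucose, or from pyruvate and lactate by way of PEPCK-C, the product of Pck1 (glyceroneogenesis). Brown adipocytes and liver use glycerol kinase to phosphorylate glycerol directly. GPD2 sits on the inner mitochondrial membrane and passes the electrons of glycerol 3-phosphate to the respiratory chain, which together with cytosolic GPD1 forms the glycerol phosphate shuttle.

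Promoter windows are shown for Gk and Gpd2, both of which were higher in iWAT of UCP1 KO mice than in controls, and for Pck1, the key gene of glyceroneogenesis, which did not pass the test there. The windows come from RefSeq with the build GRCm38.p6 and run from 250 bases before the annotated start to 50 bases after it, 300 bases in the direction of the gene, and 6 of the 7 genes matched such a window. Capitals mark matches to TGACGT, the core of a cAMP response element, searched on both strands and not overlapping another motif searched.
Gk, chrX:85776770-85777069, minus strand: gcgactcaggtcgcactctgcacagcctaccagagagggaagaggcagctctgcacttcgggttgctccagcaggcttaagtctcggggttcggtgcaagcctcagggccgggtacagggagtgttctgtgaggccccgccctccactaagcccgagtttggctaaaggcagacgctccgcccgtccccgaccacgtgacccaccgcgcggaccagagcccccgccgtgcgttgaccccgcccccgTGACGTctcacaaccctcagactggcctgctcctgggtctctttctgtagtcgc
Gpd2, chr2:57237428-57237727, plus strand: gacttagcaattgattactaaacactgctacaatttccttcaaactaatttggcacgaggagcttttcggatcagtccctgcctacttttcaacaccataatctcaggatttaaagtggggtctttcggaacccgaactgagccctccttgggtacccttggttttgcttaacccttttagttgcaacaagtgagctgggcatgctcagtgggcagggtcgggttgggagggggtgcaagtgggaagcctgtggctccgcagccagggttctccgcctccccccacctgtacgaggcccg
Pck1, chr2:173152823-173153122, plus strand: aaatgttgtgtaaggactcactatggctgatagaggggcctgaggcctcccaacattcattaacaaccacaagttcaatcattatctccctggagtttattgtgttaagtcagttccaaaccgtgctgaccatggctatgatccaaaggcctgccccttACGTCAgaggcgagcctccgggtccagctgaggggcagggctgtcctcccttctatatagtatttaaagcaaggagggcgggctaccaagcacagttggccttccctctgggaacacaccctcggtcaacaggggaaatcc

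The match in Gk began 4 bases before the annotated start, and that in Pck1, on the opposite strand, 91 bases before it. The motif stood in 7.51% of 32851 promoter windows of this length, and Gpd2 held none in either of its 2 annotated windows. AGGTCA, a half-site of nuclear receptors, stood in 16.3% of all windows and in neither Gk, Gpd2 nor Pck1, whereas both annotated windows of Aqp7 held it. Those windows of Aqp7 overlap and have a match in common. TATAAA stood in 13.6% of all windows and, among the members, in that of Aqp3. These motifs were chosen after the sequences had been read. The Gk gene spans X:85701937-85776819, Gpd2 spans 2:57237635-57370719 and Pck1 spans 2:173153048-173159273. Gpd1 lies at 15:99717515-99725005, and Gpd1l at 9:114899341-114933987. Aqp3 (4:41092722-41098183) and Aqp7 (4:41033074-41048139) are neighbours on the minus strand, 44583 bases apart (GRCm38). Gk, Gpd1 and Gpd2 each overlap annotated transcripts on the other strand, and the strand setting of the read counting was not given in the sources used here, so reads of those transcripts could not be told apart from reads of the gene.

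Libraries held 28691377 to 50380696 counts, and replicate libraries differed by more than sampling noise in every pair. The labels do not say which tissues came from the same animal. Fgf21 had at most 3 counts in any FGF21 KO or dKO library. WT libraries had 51 to 107 in liver, 7 to 10 in BAT, 2 to 11 in iWAT and 0 to 3 in muscle. The counts therefore cannot check the FGF21 genotype in muscle. Ucp1 reads remained in the libraries labelled UCP1 KO, with 24291 to 60779 counts in BAT against 98548 to 216085 in WT, while in iWAT the same label carried more Ucp1 reads (3942 to 20264) than WT (109 to 776). A count over the whole gene does not check a targeted allele whose altered part is not separated, so UCP1 KO below means the libraries labelled so. Adipocyte markers were high in every iWAT library, but 9 of the 20 also carried a lymph node marker score above 4 (mean log2 of 8 genes, among them Cd79a and Ms4a1), which in the other 11 was 1.96 or less. Of these 9, 4 were FGF21 KO, 2 were dKO, 2 were WT and 1 was UCP1 KO. A skeletal muscle score (10 genes, such as Acta1 and Ckm) reached 9.34 in UCP1 KO and 8.41 in dKO libraries of BAT, against at most 3.05 in WT. In iWAT it was above 5 in WT replicates 4 and 5 (5.71 and 9.47), FGF21 KO replicate 5 (7.57), UCP1 KO replicate 1 (10.22) and dKO replicate 1 (5.10). Fewer cells of a type and less RNA per cell cannot be told apart in such bulk samples.

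Levels of the 7 genes differed by orders of magnitude, and so did their order over tissues. On a scale per kb of exon (RPKM over 1 scaling of all 80 libraries), Gpd1 in WT BAT was the highest of all WT levels at 2488 ± 259 (SD, n = 5). Pck1 followed at 1464 ± 289 in BAT, 720 ± 225 in liver and 631 ± 165 in iWAT. Gk stood at 30.7 ± 15.01 in WT BAT and 21.1 ± 2.61 in liver but at 0.916 ± 0.0560 in iWAT and 0.437 ± 0.173 in muscle. Aqp7 was a gene of fat, with 96.1 ± 2.74 in BAT, 46.9 ± 19.2 in iWAT and 7.41 ± 1.16 in muscle, and at most 12 counts in any liver library. Gpd1l, a relative of Gpd1 best known from heart, was nearly level, with group means from 6.63 to 9.67 over all 16 groups. Aqp3, the channel of epithelia and skin, had at most 12 counts in any library of BAT, liver or muscle.

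**Figure D1:**
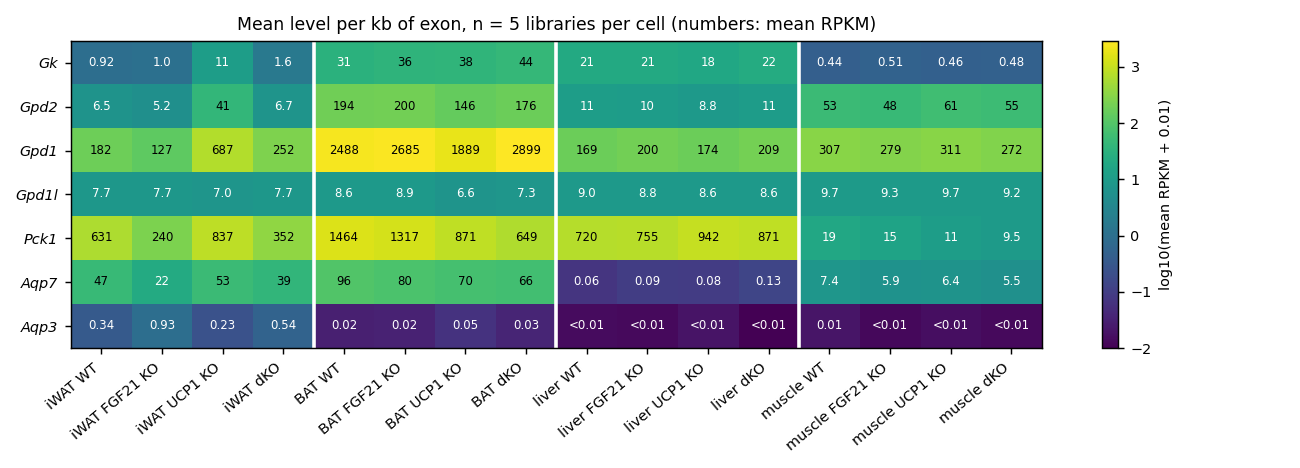
Mean level of each gene in the 16 groups (4 tissues by 4 genotypes, 5 libraries each); the number in a cell is the mean RPKM and the colour its log10 after adding 0.01. Gk in iWAT reads 0.92 in WT and 11 in UCP1 KO mice, against 31 in WT BAT.

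Among the tissues of WT mice, BAT and iWAT differed in Gk, Gpd1, Gpd2 and Aqp7, 4 of the 6 genes other than Aqp3, in a fit over the 20 WT libraries (edgeR quasi-likelihood test, adjusted p under 0.01 for a call throughout), where 60.7% of all 16886 genes tested differed. On the read counts scaled to library size (CPM) of that fit, Gk was 33.3-fold higher in BAT than in iWAT (234 ± 115 against 7.03 ± 0.438, n = 5 each, adjusted p = 5.02e-11), Gpd2 29.5-fold and Gpd1 13.6-fold. The libraries of both depots did not overlap for any of these. Aqp7 was 2.05-fold higher in BAT (adjusted p = 0.000311). Pck1 was 2.31-fold higher there without passing the test (adjusted p = 0.0133), and Gpd1l differed by 1.11-fold (adjusted p = 0.0820). Aqp3 passed the filter on low counts only through iWAT, so its call there is not counted. In iWAT it had 2.20 and 2.69 CPM in the 2 WT libraries with a high lymph node score and 0.0809 to 0.139 CPM in the 3 others (scale of the iWAT fit).

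Gk in WT BAT and WT liver did not pass the test (234 against 160 CPM, adjusted p = 0.0718), nor did Gpd1l. Pck1 was 2.05-fold higher in BAT than in liver, short of the threshold (log2 1.03, 95% interval 0.178 to 1.89, adjusted p = 0.0285). BAT exceeded liver in Gpd1 and Gpd2, where 67.3% of all genes differed. Aqp7 passed the filter only through the other tissues, so its call there is not counted. Gpd2 in muscle (333 ± 67.1 CPM) was 7.86-fold that of iWAT and 4.83-fold that of liver. Gpd1 in muscle was 1.64-fold that of iWAT, and liver and iWAT did not differ in it (adjusted p = 0.432). The 6 genes other than Aqp3 differed between iWAT and muscle, where 74.4% of all genes did, with Pck1 34.0-fold higher in iWAT. In muscle, Pck1 ranged from 18.4 to 132 CPM over the 5 WT libraries (scale of the muscle fit). The muscle library with 132 CPM also had the highest adipocyte marker score of the WT muscle libraries (5.19, against 3.64 to 4.59), and the part of fat in that value was not tested.

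In iWAT, the gene that phosphorylates glycerol and the gene that oxidises glycerol 3-phosphate in mitochondria were higher in UCP1 KO mice. Gk and Gpd2 were called in UCP1 KO both against WT and against dKO, the remaining 5 genes passed the test in neither comparison, and no member was called lower. The UCP1 KO libraries are common to both comparisons. Of all 17380 genes tested in iWAT, 0.593% were called higher in UCP1 KO against WT and 0.437% against dKO. The members were chosen with earlier results of these data known, so these shares do not test them as a set. Over the 4 genotypes together, Gk and Gpd2 were also the 2 members that differed, at a background of 1.74%.

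Gk, which converts glycerol to glycerol 3-phosphate, had 11.2, 11.6, 10.8, 13.0 and 11.1 CPM in the 5 WT libraries of iWAT. In UCP1 KO it had 119, 35.3, 92.2, 91.1 and 326 CPM, and in dKO 12.5, 27.2, 15.7, 19.9 and 27.6 CPM. All 5 UCP1 KO libraries lay above every library of the other 3 genotypes, of which the highest, in dKO, had 27.6 CPM. The UCP1 KO mean was 133 ± 112 CPM against 11.51 ± 0.853 in WT, an 11.52-fold difference (log2 3.53 ± 0.44 SE, 95% interval 2.61 to 4.44, adjusted p = 0.00064). Against dKO (20.6 ± 6.75 CPM) it was 6.44-fold (log2 2.69 ± 0.42 SE, adjusted p = 0.00338). The call against WT was lost when only those 2 genotypes were fitted (adjusted p = 0.0236) or only libraries with a skeletal muscle score of 5 or less (adjusted p = 0.0142). The call against dKO was lost in 7 of 30 alternatives, 3 of them with dKO replicate 1, 2 or 3 left out (adjusted p = 0.0164, 0.0118 and 0.0156). The other 4 were the fit of the 2 genotypes alone (adjusted p = 0.09997), the limits on the skeletal muscle score (0.0481) and the lymph node score (0.0125), and the adjustment for an epithelium score (0.0104). Over all 30 alternatives the log2 difference of Gk was 2.87 to 3.79 from WT and 2.04 to 2.93 from dKO.

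Without UCP1 KO replicate 5, the library with 326 CPM, the log2 difference of Gk from WT was 2.87, and it was still called. Per kb of exon, the UCP1 KO mean in iWAT was below that of WT BAT, 10.9 ± 9.17 against 30.7 ± 15.01 RPKM. In FGF21 KO Gk had 11.7, 19.4, 12.2, 9.20 and 11.8 CPM, which overlapped WT (adjusted p = 0.789). In dKO against WT the log2 difference was 0.84 (95% interval -0.003 to 1.68, adjusted p = 0.846).

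Gpd2, the mitochondrial enzyme, had 56.8, 73.9, 63.4, 85.4 and 68.1 CPM in WT libraries and 251, 165, 453, 513 and 715 CPM in UCP1 KO libraries of iWAT. The dKO libraries had 49.0, 62.6, 74.9, 114 and 53.6 CPM. The lowest UCP1 KO library stood above the highest dKO library and above all WT and FGF21 KO libraries. Gpd2 was 6.03-fold higher in UCP1 KO than in WT (log2 2.59 ± 0.34 SE, adjusted p = 0.000812) and 5.92-fold higher than in dKO (adjusted p = 0.00147), while dKO and WT differed by 1.02-fold (adjusted p = 0.999). Fitted on the 2 genotypes alone, Gpd2 had adjusted p = 0.0197 against WT and 0.0514 against dKO, and the call against dKO was also lost with only libraries whose skeletal muscle score was 5 or less (adjusted p = 0.0150). The exact permutation test gave p = 0.00794 for Gk and for Gpd2 in both comparisons, the smallest value 5 against 5 libraries allow (two-sided).

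Gpd1, the cytosolic partner of Gpd2 and the enzyme that makes the triglyceride backbone, had 707 to 1123 CPM in WT libraries and 2727, 1545, 4235, 3406 and 4162 CPM in UCP1 KO libraries of iWAT. The 2 groups did not overlap, which was so for 3 of 7 members and for 3.83% of all genes tested. The 3.68-fold difference did not reach the threshold (log2 1.88 ± 0.47 SE, adjusted p = 0.0400). The dKO libraries had 543, 1679, 609, 1113 and 2061 CPM and overlapped both WT and UCP1 KO (UCP1 KO against dKO: 2.68-fold, adjusted p = 0.126). Among the libraries with a lymph node score of 4 or less, the UCP1 KO and WT difference in Gpd1 was called (log2 2.08, adjusted p = 0.0018).

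**Figure D2:**
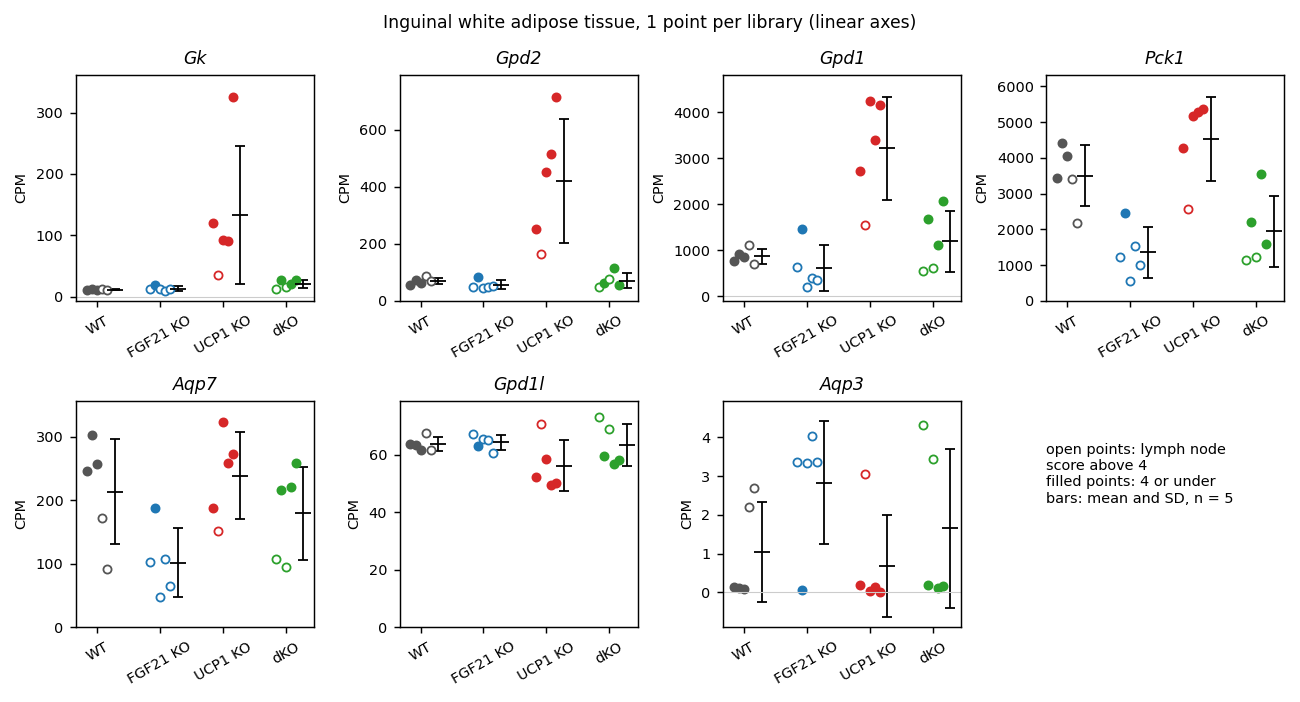
CPM of each gene in each iWAT library by genotype, with the mean and SD of 5 libraries; open points are libraries with a lymph node score above 4. The 5 UCP1 KO points of Gk (35.3 to 326 CPM) and of Gpd2 (165 to 715 CPM) lie above all other points of those panels, and the open points of Aqp3 (2.20 to 4.31 CPM) lie above all its filled points.

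For the remaining members the UCP1 KO and WT libraries overlapped. Pck1 had 3433, 4411, 4039, 3416 and 2177 CPM in WT and 4275, 2572, 5181, 5283 and 5353 CPM in UCP1 KO libraries, a 1.30-fold difference with overlapping groups (adjusted p = 0.762). Aqp7 differed by 1.12-fold (238 ± 68.6 against 213 ± 82.6 CPM, adjusted p = 0.925) and Gpd1l by 1.13-fold in the other direction (56.1 ± 8.82 against 63.6 ± 2.48 CPM, adjusted p = 0.414). With a lymph node score of 4 or less, Gpd1l had 49.3 to 58.3 CPM in UCP1 KO and 61.6 to 63.75 CPM in WT. Above that score Gpd1l had 70.6 CPM in UCP1 KO and 61.65 to 67.7 CPM in WT. The median log2 difference of the 7 members was 0.38, against -0.03 over all genes tested.

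Within iWAT, Pck1 had its lowest group means in FGF21 KO and dKO, but no comparison of it passed the test there. FGF21 KO libraries had 1213, 2459, 543, 1543 and 1009 CPM and dKO libraries 1147, 2212, 1228, 3541 and 1588 CPM. Pck1 was 2.58-fold lower in FGF21 KO than in WT (log2 -1.37 ± 0.38 SE, adjusted p = 0.223) and 2.33-fold higher in UCP1 KO than in dKO (log2 1.22, adjusted p = 0.0978), and neither passed the test. Adjusted for the lymph node score, Pck1 was called in UCP1 KO against dKO (log2 1.09, adjusted p = 0.00567), and its difference between FGF21 KO and WT was -1.11 (adjusted p = 0.0477). Of the 5 FGF21 KO libraries, 4 had a high lymph node score, and the 1 that did not had 2459 CPM against 3433 to 4411 CPM in the 3 WT libraries without it.

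The interaction asks whether UCP1 loss acted differently with and without FGF21. It was 2.85 on the log2 scale for Gk (95% interval 1.64 to 4.05) and 2.25 for Gpd2 (1.30 to 3.20), both with adjusted p = 0.0907, and no member passed the edgeR test, nor did any of the 17380 genes. At an unadjusted p under 0.05 there were 2 members, Gk and Gpd2, and 9.98% of all genes. With DESeq2 in place of edgeR both genes passed (adjusted p = 0.000417 for Gk and 0.000483 for Gpd2), as did 0.363% of the 17088 genes to which it gave an adjusted p. UCP1 loss without FGF21, read from dKO against FGF21 KO, gave log2 differences of 0.68 for Gk and 0.34 for Gpd2 (adjusted p = 0.542 and 0.588).

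Brown adipocyte markers (Cidea, Dio2, Elovl3, Cox7a1, Cpt1b and Ppargc1a) moved with Gk and Gpd2 in iWAT. Their mean log2 level was 5.23 to 8.01 in the 5 UCP1 KO libraries, and at most 3.92 in the 15 others. The lowest of these scores, 5.23 in UCP1 KO replicate 2, went with the lowest Gk (35.3 CPM) and Gpd2 (165 CPM) of that genotype and with a lymph node score of 7.55. The highest, 8.01 in replicate 5, went with the highest Gk and Gpd2. Without the lymph-node-rich libraries Gk and Gpd2 were called again against WT (log2 3.79 and 2.88), with 4 UCP1 KO against 3 WT libraries. Against 3 dKO libraries Gpd2 was called and Gk was not (log2 2.62 and 2.63, adjusted p = 0.00778 and 0.0125). The part of brown adipocytes in the Gk and Gpd2 differences was not tested.

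Aqp3 in iWAT followed the lymph node score. The 9 libraries with a score above 4 had 2.20 to 4.31 CPM and the 11 others 0 to 0.194 CPM, with no overlap, in every genotype alike. No genotype comparison of Aqp3 passed the test (adjusted p = 0.921 for UCP1 KO against WT, and 0.483 for FGF21 KO against WT). Aqp7 and Pck1, genes of adipocytes, were lower in the lymph-node-rich libraries within each genotype. In WT, Aqp7 had 246 to 302 CPM in the 3 libraries without the signal and 91.7 and 171 CPM in the 2 with it. In dKO it had 216 to 259 CPM in 3 and 94.4 and 107 CPM in 2 libraries. Aqp7 was 2.10-fold lower in FGF21 KO than in WT without passing the test (adjusted p = 0.249). The log2 difference was -1.07, and -0.71 when adjusted for the lymph node score (adjusted p = 0.113), with 4 of the 5 FGF21 KO libraries above a score of 4.

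**Figure D3:**
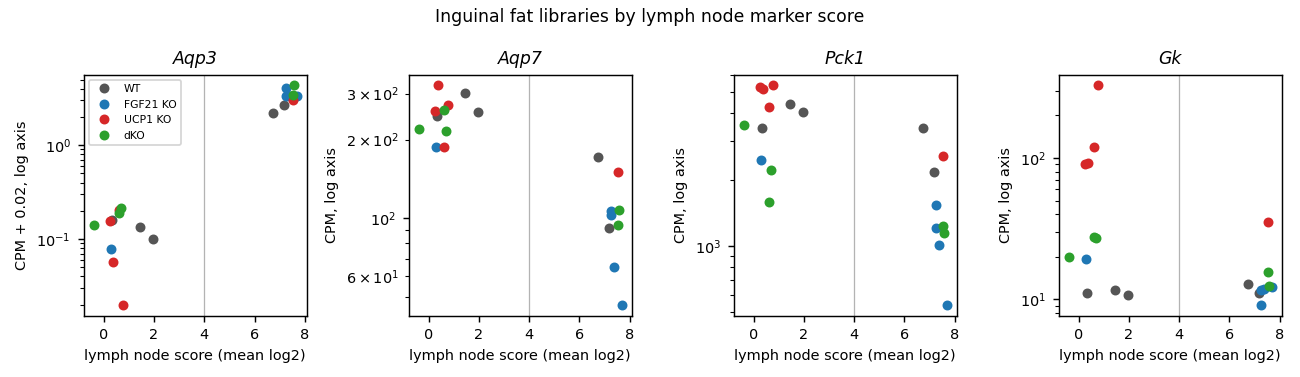
CPM of Aqp3, Aqp7, Pck1 and Gk (log axes, 0.02 added for Aqp3) against the lymph node score (mean log2 of 8 marker genes) in the 20 iWAT libraries; the vertical line marks a score of 4. Aqp3 lies at 2.20 to 4.31 CPM right of the line and at 0.194 or less left of it, whereas Gk separates UCP1 KO from the other genotypes on both sides.

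In BAT, where Gk, Gpd1 and Gpd2 were already high, none of them was called in UCP1 KO against WT. Aqp7 and Gpd1l were called lower there, 2 of the 6 members tested, where 11.4% of all 15729 genes were called lower and 13.8% higher. The differences were 1.39-fold and 1.31-fold. A macrophage marker score (4 genes, Adgre1, Cd68, Lyz2 and Mrc1) was 4.38 to 5.80 in the UCP1 KO libraries of BAT and 3.79 to 4.08 in WT, with no overlap, and 4.04 to 5.11 in dKO, and its part in these differences was not tested. Aqp3 was not tested in BAT because of its low counts.

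Aqp7, through which glycerol leaves the adipocyte, had 286, 283, 269, 288 and 284 CPM in WT libraries of BAT. It had 236, 166, 205, 179 and 231 CPM in UCP1 KO and 216, 187, 177, 189 and 196 CPM in dKO libraries. All 10 libraries labelled UCP1 KO or dKO lay below all 5 WT libraries (UCP1 KO against WT: log2 -0.47 ± 0.09 SE, adjusted p = 0.000694). In dKO against WT it was 1.46-fold lower (log2 -0.55, adjusted p = 0.000257), a call lost on adjusting for the skeletal muscle score (adjusted p = 0.0136). Over all 27 alternatives that log2 difference was -0.591 to -0.4. FGF21 KO libraries, with 232, 196, 255, 256 and 248 CPM, also lay below WT without passing the test (adjusted p = 0.436). Libraries did not overlap for 2 of the 6 members in UCP1 KO against WT, close to the 23.5% of all genes for which this was so.

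Gpd1l had 49.1, 47.9, 41.8, 48.0 and 40.1 CPM in WT and 34.1, 38.2, 38.5, 32.2 and 30.7 CPM in UCP1 KO libraries of BAT. Every UCP1 KO library was below every WT library (log2 -0.39 ± 0.07 SE, adjusted p = 0.000546). In dKO against WT, Gpd1l did not pass the test (log2 -0.24, adjusted p = 0.0161). It was called lower in dKO against FGF21 KO (1.23-fold, adjusted p = 0.00603), the only member called there, at a background of 6.80%. That call was lost without any of 8 single libraries, with adjusted p up to 0.0206, and also without the low-count filter (adjusted p = 0.0112) and with only libraries whose skeletal muscle score was 5 or less (adjusted p = 0.0201).

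Pck1 in BAT had 3708, 5160, 5758, 4971 and 6471 CPM in WT and 3109, 2110, 1502, 2605 and 2219 CPM in dKO libraries, with no overlap. Libraries of these genotypes did not overlap for 24.8% of all genes. Pck1 was 2.26-fold lower in dKO (log2 -1.18 ± 0.32 SE, adjusted p = 0.0077), which with Aqp7 made 2 members called lower in dKO against WT, at a background of 10.0%. The call on Pck1 was lost on adjusting for the skeletal muscle score (log2 -0.77, adjusted p = 0.167), with only libraries whose score was 5 or less (log2 -1.27, adjusted p = 0.0192) and without any of 9 single libraries. Of the dKO libraries, 3 had a skeletal muscle score above 5. The other 2 had 2110 and 2219 CPM of Pck1.

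In UCP1 KO, Pck1 had 6904, 1438, 2287, 2154 and 2623 CPM, so that 4 libraries lay below all WT libraries and replicate 1 above all of them. The difference from WT was 1.69-fold and not called (log2 -0.76, adjusted p = 0.0604). Without replicate 1 it was -1.29 and called (adjusted p = 0.00014). The same library had the highest Gk of the 20 BAT libraries, 543 CPM. Pck1 in dKO against FGF21 KO was 2.04-fold lower with an adjusted p of 0.0212. These libraries did not overlap, which was so for 18.6% of all genes.

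Gk in BAT ranged from 125 to 379 CPM in WT and from 181 to 543 CPM in UCP1 KO libraries, and the 95% interval of its log2 difference ran from -0.38 to 0.97. Gpd2 had 1175 to 1505 CPM in WT and 568 to 1295 CPM in UCP1 KO libraries (log2 -0.42, adjusted p = 0.0442). Gpd1 had 6973 to 8658 CPM in WT and 1470 to 8471 CPM in UCP1 KO libraries (adjusted p = 0.360). The lowest Gpd1 and the lowest Gpd2 of BAT came from 1 library, UCP1 KO replicate 5, which also had the lowest adipocyte marker score of the 20 BAT libraries (7.61, against 8.55 to 9.63), and the part of that in these values was not tested. In BAT, no member was called between UCP1 KO and dKO, or in the interaction, by edgeR or DESeq2. By edgeR, 0 members had an unadjusted p under 0.05 in either comparison. Of all genes tested, edgeR called 0.0636% between UCP1 KO and dKO and 0 in the interaction. The lack of calls is therefore not particular to the members.

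**Figure D4:**
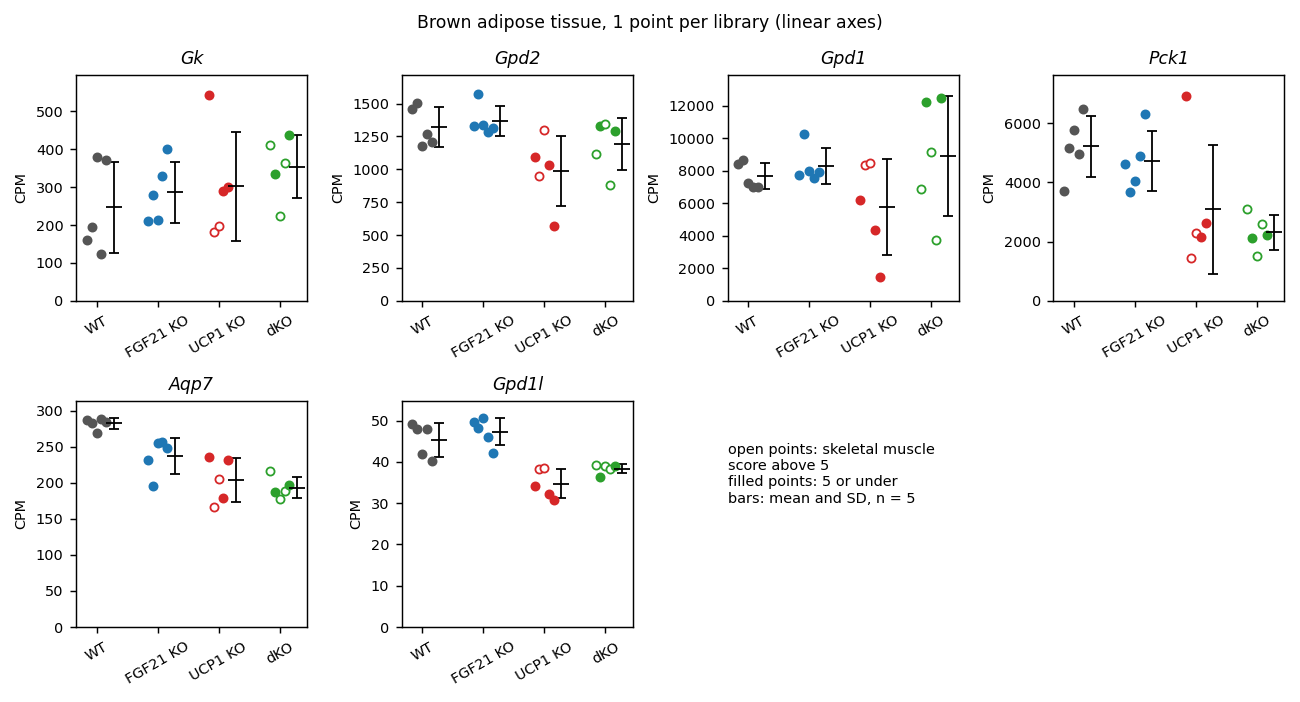
CPM of each tested gene in each BAT library by genotype, with the mean and SD of 5 libraries; open points are libraries with a skeletal muscle score above 5. Aqp7 in UCP1 KO (166 to 236 CPM) and dKO (177 to 216 CPM) lies below the WT points (269 to 288 CPM), and 1 UCP1 KO point of Pck1 (6904 CPM) lies far above the other 4.

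The effect of UCP1 loss differed between the depots when tested directly. In a fit over both, the log2 difference of UCP1 KO from WT was larger in iWAT than in BAT by 3.19 for Gk (95% interval 2.11 to 4.27, adjusted p = 0.000103), by 2.98 for Gpd2 (adjusted p = 2.17e-06) and by 2.27 for Gpd1 (1.07 to 3.46, adjusted p = 0.00844). These 3 of 7 members compare with 6.19% of all 17441 genes tested. The call on Gpd1 was lost when any of 14 single libraries was left out, with an adjusted p of at most 0.0183. For Pck1 the depots differed by 1.11 (adjusted p = 0.136), and without BAT UCP1 KO replicate 1 by 1.66 (adjusted p = 0.0084). Aqp7, Gpd1l and Aqp3 were not called.

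In liver and muscle none of the members tested was called in any comparison of genotypes by edgeR, nor by DESeq2. In UCP1 KO against WT, 0 members had an unadjusted p under 0.05 in either tissue. Elsewhere Aqp7 in muscle was below that unadjusted value in dKO against WT (log2 -0.42, unadjusted p = 0.00373 and adjusted p = 0.155 by edgeR), in FGF21 KO against WT (0.0284 and 0.302) and over all genotypes (0.0241 and 0.227), and Gk in liver in UCP1 KO against dKO (0.0412 and 0.590). In UCP1 KO against WT, 0.0694% of the genes tested in liver and 0.0265% in muscle were called. Gk in liver had 106 to 147 CPM in WT and 88.7 to 132 CPM in UCP1 KO libraries (log2 -0.21, 95% interval -0.48 to 0.06). Pck1, a gluconeogenic enzyme in liver, had 1484 to 2891 CPM in WT and 1416 to 4061 CPM in UCP1 KO libraries (0.39, -0.17 to 0.96). In muscle, Gpd2 had 209 to 329 CPM in WT and 256 to 370 CPM in UCP1 KO libraries (0.19, -0.06 to 0.44), and Gpd1l 36.6 to 40.8 and 38.0 to 40.1 CPM. Aqp7 and Aqp3 in liver and Aqp3 in muscle did not pass the filter on low counts.

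**Figure D5:**
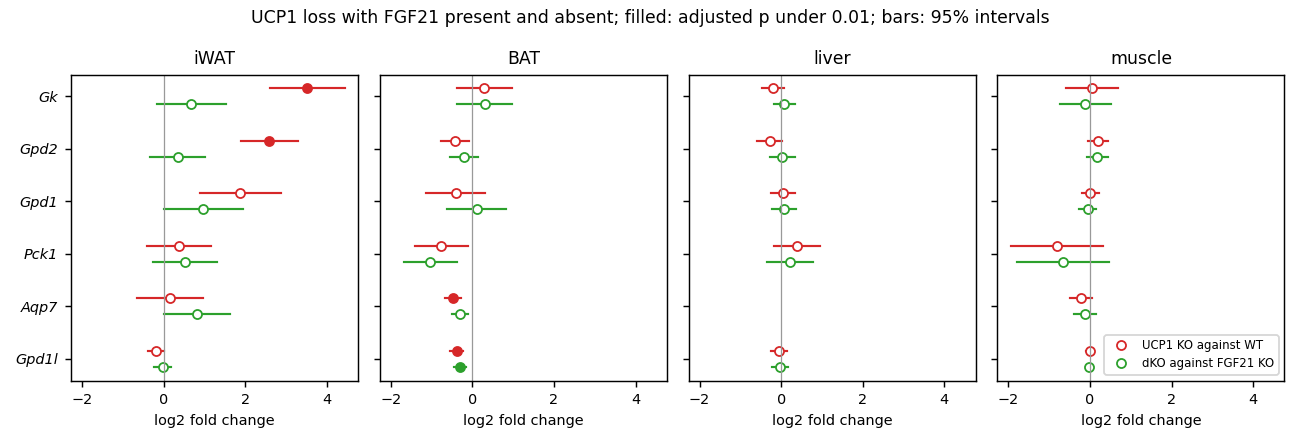
Log2 fold change with its 95% interval for UCP1 loss with FGF21 present (UCP1 KO against WT, red) and absent (dKO against FGF21 KO, green) in the 4 tissues, for the members other than Aqp3; filled points have an adjusted p under 0.01. In iWAT the filled points are Gk (3.53) and Gpd2 (2.59) with FGF21 present, and in BAT Aqp7 (-0.47) and Gpd1l (-0.39) with FGF21 present and Gpd1l (-0.30) without it.

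The genes around the members in the pathway were taken from 6 lists, also chosen with earlier results of these data known. In iWAT of UCP1 KO against WT, where 0.593% of all genes were called higher, 2 of 10 genes of upper glycolysis, which leads to dihydroxyacetone phosphate, were called higher. These were Pfkl, liver-type phosphofructokinase (310 ± 133 against 93.5 ± 12.4 CPM, log2 1.73 ± 0.30 SE, adjusted p = 0.00528), and Gpi1, glucose phosphate isomerase (log2 1.08 ± 0.17 SE, adjusted p = 0.00326). Of 10 transcriptional regulators, Ppara alone was called, a nuclear receptor for fatty acids (175 ± 124 against 16.8 ± 5.60 CPM, log2 3.38 ± 0.57 SE, adjusted p = 0.00382). None of the 5 genes tested of other glycerol handling, the 12 of pyruvate and oxaloacetate supply, the 13 of glycerol 3-phosphate acylation or the 8 of lipolysis was called in either direction. Against dKO, Gpi1 and Ppara were called higher and no other gene of the 6 lists was.

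In BAT of UCP1 KO against WT, the counts of the lists stand against 13.8% of all genes called higher and 11.4% called lower. Of 12 genes of pyruvate and oxaloacetate supply, 3 were called higher, and none lower. They were Got1, cytosolic aspartate aminotransferase (140 ± 62.2 against 23.3 ± 3.45 CPM, log2 2.58 ± 0.23 SE, adjusted p = 3.43e-07), Pck2, the mitochondrial relative of Pck1 (66.6 ± 38.8 against 16.2 ± 1.16 CPM, log2 2.04 ± 0.28 SE), and Got2 (log2 1.25 ± 0.24 SE). Pck2 and Got1 were higher also in dKO against FGF21 KO (log2 1.26 and 2.04), where 6.74% of all genes were called higher. Of 13 acylation genes, Agpat9 (Gpat3, log2 1.47 ± 0.24 SE) and Lpin2 (log2 1.19 ± 0.13 SE) were higher and Dgat2, which adds the last acyl chain of a triglyceride, was lower (log2 -0.85 ± 0.17 SE, 826 ± 265 against 1487 ± 130 CPM).

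Shares near those of all genes are no result about a list, and the next 2 lists had such shares, as did acylation. No list's share, that of pyruvate and oxaloacetate supply included, was tested against that of all genes. Of 10 upper glycolysis genes in BAT, Hk1 (log2 1.47 ± 0.19 SE) and Aldoc (log2 2.20 ± 0.61 SE, at 6.59 ± 8.87 against 1.44 ± 0.344 CPM with overlapping libraries) were higher. Of 8 lipolysis genes, Lipe, hormone-sensitive lipase, was lower (log2 -0.43 ± 0.12 SE, adjusted p = 0.00993). Of 10 regulators, 5 were lower and none higher, the 3 with the largest differences being Cebpa (log2 -1.27 ± 0.14 SE), Foxo1 (log2 -0.91 ± 0.20 SE) and Ppargc1b (log2 -0.90 ± 0.21 SE). None of the 5 tested genes of other glycerol handling was called. In liver and muscle no gene of the 6 lists was called in UCP1 KO against WT.

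The genes most like Gk over the 20 iWAT libraries, by Pearson's r of log2 CPM, were Ndufaf4 (0.972), Pgk1 (0.963), Lrpprc (0.960), Mrps23 (0.956) and Ptcd3 (0.955). All these points come from the same 20 libraries, of which 5 are UCP1 KO. Over the 16 group means of all tissues they were Ppp1r3b (0.994), Pld6, Traf4, Slc25a48 and Rab9 (0.985). Pck1 in iWAT was most like Ube2h (0.973), Acad10, Smim19, Akr7a5 and Acad12 (0.951), and over the group means most like Csad (0.995), Sfxn1, Tlcd1 and Mnd1 (0.992).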

How the data were processed

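The authors sequenced poly(A) RNA from 4 tissues (TruSeq stranded libraries, paired ends) and, per the labels and the study's methods, mapped reads to mm10 with STAR and counted them per gene with HTSeq. The deposited values are raw read counts per gene symbol, not normalised. The strand setting of the counting is not given in the sources used here. A row named unknown held at most 3.4e-05% of a library's reads and was removed. Libraries held 28691377 to 50380696 counts.

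Genes were kept per tissue where the highest count exceeded 15, the sum exceeded 75 and at most 10 of 20 libraries were at 0. Genotypes were compared in 1 fit per tissue with edgeR 4.0.16 (TMM scaling, quasi-likelihood test, R 4.3.3), with Benjamini-Hochberg adjustment over all genes tested and a call at adjusted p under 0.01. Tissues of WT mice, and both fat depots, were compared in fits of their own. CPM values are read counts scaled by TMM library size, so their level holds within a fit only, and RPKM divides them by the exon union of GENCODE. The labels name replicates only as separate samples, and the study's methods give n = 5 for the mice of these genotypes. The p-values weigh each difference against the spread between samples. Alternatives included DESeq2 1.42.0, no low-count filter, RLE scaling, each library left out, and marker scores as covariates. The models were also run on simulated data, and that outcome is not reported here. The restriction to libraries with a skeletal muscle score of 5 or less was chosen after seeing the data. Marker scores are means of log2(CPM + 0.1).

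The 7 members and all gene lists were chosen with earlier results of these data known. Genes named beside the members are, of each pathway list, the called genes with the 3 largest log2 differences in UCP1 KO against WT in iWAT or BAT, and the 5 genes most like Gk and most like Pck1, passing over uncharacterised symbols; 1 of these genes is not reported here.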

Additional observations from a re-analysis of the deposited data

Results flagged for a closer look

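In 12 of 96 groups of 5 libraries, 1 library stood apart from the other 4 by Dixon's criterion, which chance would give in about 4.8 groups. In iWAT, FGF21 KO replicate 2 stood apart for 3 genes. It had 0.0584 CPM of Aqp3 against 3.34 to 4.03 in the other 4 libraries, 19.4 CPM of Gk against 9.20 to 12.2, and 83.3 CPM of Gpd2 against 45.9 to 52.5. It was the only FGF21 KO library with a lymph node score of 4 or less. UCP1 KO replicate 2, the only UCP1 KO library above that score, had 3.05 CPM of Aqp3 against 0 to 0.185. UCP1 KO replicate 5 had 326 CPM of Gk against 35.3 to 119.

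In BAT, UCP1 KO replicate 1 had 6904 CPM of Pck1 against 1438 to 2623 in the other 4. FGF21 KO replicate 2 had 10260 CPM of Gpd1 against 7562 to 7991, and 1573 CPM of Gpd2 against 1287 to 1338. WT replicate 3 had 269 CPM of Aqp7 against 283 to 288. In liver, WT replicate 5 had 2891 CPM of Pck1 against 1484 to 1858. In muscle, UCP1 KO replicate 5 had 72.6 CPM of Pck1 against 8.995 to 23.6, and FGF21 KO replicate 2 had 9.47 CPM of Aqp7 against 14.2 to 15.2.

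The log2 effect of UCP1 loss was larger in iWAT than in BAT by 3.19 for Gk, by 2.98 for Gpd2 and by 2.27 for Gpd1, each called in the test of the difference itself (edgeR, adjusted p = 0.000103, 2.17e-06 and 0.00844). The call on Gpd1 was lost in 14 of 22 alternatives, with adjusted p up to 0.0183.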

How the results depend on the processing

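No called value changed direction under any alternative. Of 4960 values of single genes under alternatives, 4888 kept their side of the threshold, 48 lost the call and 24 gained it. Among values called in neither fit, 151 changed sign. In UCP1 KO against WT in iWAT, 2 members were called, also without any single library, but 1 with a skeletal muscle score of 5 or less and 0 when only the 2 genotypes were fitted, and 3 (with Gpd1) at adjusted p under 0.05, with DESeq2, on adjusting for the lymph node score and with that score at 4 or less. Against dKO the 2 members became 1 with the epithelium score as a covariate or a lymph node score of 4 or less, and 0 with a skeletal muscle score of 5 or less or only the 2 genotypes, 3 (with Pck1) on adjusting for the lymph node score, and leaving out single libraries gave 1 to 2. Over all genotypes in iWAT, 2 became 4 at adjusted p under 0.05, with DESeq2 and on adjusting for the lymph node score, and 2 to 4 without single libraries. The interaction in iWAT went from 0 to 2 with DESeq2. In BAT, the 2 members over all genotypes became 1 on adjusting for the muscle score and 3 with DESeq2, at adjusted p under 0.05 or without UCP1 KO replicate 1. The 2 in UCP1 KO against WT became 3 at adjusted p under 0.05 or without that library. The 2 in dKO against WT became 3 at adjusted p under 0.05, 1 with a muscle score of 5 or less and 0 on adjusting for it, and 1 to 2 without single libraries. The 1 in dKO against FGF21 KO became 3 at adjusted p under 0.05, 2 with DESeq2 or only the 2 genotypes, 0 without the low-count filter or with a muscle score of 5 or less, and 0 to 2 without single libraries. The cause was not tested. No paired analysis was possible because the labels carry no replicate numbers (those used here follow accession order and only name libraries) and do not link tissues of 1 mouse. Low counts limit Aqp3, with at most 12 per library outside iWAT, and Aqp7 in liver, also with at most 12.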
